A study of Homo sapiens with 15 samples.

Results

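Heme synthesis was followed at the level of RNA in K562 cells exposed to martinostat, through 9 genes: the mitochondrial glycine carrier SLC25A38 and the enzymes ALAS1, ALAS2, ALAD, UROS, UROD, CPOX, PPOX and FECH. They were chosen by name for their place in the pathway and make up 9 of the 60649 genes in the count table. K562 is a long-established line from human chronic myeloid leukaemia (CML) with erythroid character, and martinostat is an inhibitor of histone deacetylases (HDACs). The groups were untreated K562 cells and K562 cells kept for 24 h in 0.15, 0.25, 0.5 or 1 µM martinostat, with 3 libraries each and 15 in all. All groups came from the same line, so the measurements describe a leukaemic line and not normal erythroid precursors. Only RNA was measured here, so the amount and activity of the enzymes and the levels of heme and porphyrins are not known from these data. The labels name no other agent and do not say whether untreated cells received the solvent of the drug. The labels call the libraries biological replicates without saying how the cultures were kept apart, so p-values measure the spread between these libraries.

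Heme is built across the mitochondrion and the cytosol. Glycine enters the mitochondrion through SLC25A38 and is joined to succinyl-CoA by aminolevulinate synthase, the rate-limiting step, which exists as the housekeeping form ALAS1 and the erythroid form ALAS2. Cytosolic enzymes turn the product into a porphyrin ring, and CPOX, PPOX and FECH finish the ring and insert iron back in the mitochondrion. In red cell precursors the erythroid form is driven by GATA1 and its translation is held by an iron-responsive element, while ALAS1 in other tissues is restrained by heme itself.

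The start regions of both ALAS genes are shown because these 2 genes moved most strongly in opposite directions, and that of CPOX because it holds the same erythroid type of motif as ALAS2. Sequences were taken from RefSeq on GRCh38.p14, where 8 of the 9 genes had a window from 250 bases before to 50 bases after a start, and they are written 5′ to 3′ along the gene. In the first pair, on the minus strand at chrX:55030978-55031117 (bases 140 to 1 before the ALAS2 start) and chr3:98593711-98593831 (bases 220 to 100 before the CPOX start), capitals mark the core recognised by GATA factors, AGATAA, which is read here from the other strand as TTATCT. They also mark, in ALAS2, a pair of overlapping KLF-type boxes, CCACCC read from the other strand as GGGTGG, and the box with the letters CCAAT.
ALAS2 upstream: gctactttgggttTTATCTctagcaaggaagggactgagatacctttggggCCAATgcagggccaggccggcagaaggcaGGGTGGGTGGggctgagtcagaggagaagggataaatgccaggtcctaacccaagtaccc
CPOX upstream: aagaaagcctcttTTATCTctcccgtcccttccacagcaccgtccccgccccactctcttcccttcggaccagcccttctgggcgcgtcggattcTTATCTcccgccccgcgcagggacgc
In the next pair, at chr3:52198095-52198124 on the plus strand and chrX:55030940-55030969 on the minus strand, capitals mark the palindrome that nuclear respiratory factor NRF1 is known to recognise (ALAS1) and CAGTG, the loop letters of the iron-responsive element.
ALAS1 bases 13 to 42: gcgcccaagGCGCATGCGCagcggtcactc
ALAS2 bases 9 to 38: ttcgttcgtcctCAGTGcagggcaacaggt
Searched on both strands, AGATAA was present in 10.4% of all 34943 such windows, CCACCC in 34.3% and CCAAT in 34.6%. AGATAA and CCACCC stood together in 2.42% of windows, among them those of ALAS2, CPOX and 1 of the 2 PPOX windows. The SLC25A38 window held CCACCC without AGATAA, and the windows of FECH and UROD held none of these letters. The full palindrome of ALAS1 was found in 1.23% of windows, and CAGTG, on the sense strand of the first 50 transcribed bases, in 6.49%. These are matches of letters and were not measured as bound sites.

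All 9 genes were expressed in every library, with the lowest single count at 362 (SLC25A38), and all passed the filter on low counts that left 23711 genes. Totals per library lay between 23755510 and 32805574 counts, so that counting error was small beside the spread between libraries. Values are CPM, the usual depth-normalised counts, with libraries scaled with edgeR's trimmed-mean method (TMM). The third libraries at 0.25 and 0.5 µM stood apart from the remaining 13 on the third principal component (48.7 and 52.1, against at most 25.9 in size), and results that rest on them are given with and without them. The erythroid markers of K562 cells were present in untreated cells, with a mean of 328 CPM for GATA1, 406 for KLF1, 122 for TAL1, 28.4 for EPOR and 1228 for TFRC. Among markers of other blood cells, group means were 0.540 to 3.39 CPM for CD3E, 0.203 to 0.865 for CD14, 0 to 0.291 for CD8A and 0 to 0.0910 for MS4A1.

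Transcripts of the 9 genes differed in direction. At 1 µM ALAS1 and ALAD were upregulated 5.20-fold and 4.22-fold, while ALAS2, UROD and SLC25A38 were downregulated 6.50-fold, 4.76-fold and 4.64-fold. FECH, CPOX and PPOX were lower by 2.69-fold, 2.27-fold and 1.85-fold, and UROS by 1.56-fold. In edgeR's quasi-likelihood test, adjusted by Benjamini-Hochberg over all 23711 genes, 2 of the 9 genes were called higher and 7 lower at 1 µM, where 66.2% of all tested genes were called (38.8% higher and 27.5% lower). The same 2 and 7 genes were called at 0.5 µM, with 66.9% of all genes called (39.4% higher and 27.6% lower). At 0.25 µM ALAD alone was called higher and 4 genes lower, against 37.4% and 24.8% of all genes (62.3% in either direction). At 0.15 µM ALAD was called higher and 3 genes lower, against 31.9% and 19.4% (51.2% in either direction). Genes of 10 CPM or more on average, to which all 9 belong, are called well expressed here. Of these 10128 genes, 40.2%, 48.7%, 48.7% and 48.4% were called lower from 0.15 to 1 µM. The shares called higher were 21.1%, 22%, 26.6% and 26.5%. The counts of lower genes at 0.15 and 0.25 µM lay near these shares and so are no result about the 9 genes. The same holds for the counts of higher genes at all 4 doses, so that a difference in direction is not particular to these genes.

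The scale of the libraries bears on these directions. Over all tested genes, the median log2 fold change was 0.28, 0.32, 0.34 and 0.32 from 0.15 to 1 µM with TMM, and 0.64, 0.85, 0.72 and 0.67 with library totals. The median of the 9 genes was −0.06, −0.38, −1.16 and −1.18 with TMM, but it turned positive at 0.15 and 0.25 µM with library totals (0.30 and 0.15) and with TMM on well-expressed genes (0.20 and 0.04). The split at 0.15 µM was 1 higher and 3 lower with TMM, 4 and 2 with library totals and 4 and 3 with TMM on well-expressed genes. At 0.25 µM it was 1 and 4, 2 and 2, and 2 and 2 in the same order. At 0.5 and 1 µM both other scalings called 2 genes higher and 6 lower, the gene lost being UROS. Across all alternatives the log2 fold change at 1 µM ran from 2.29 to 2.76 for ALAS1 and from −2.76 to −2.32 for ALAS2. Which of these 2 changed more is therefore not settled.

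**Figure D1:**
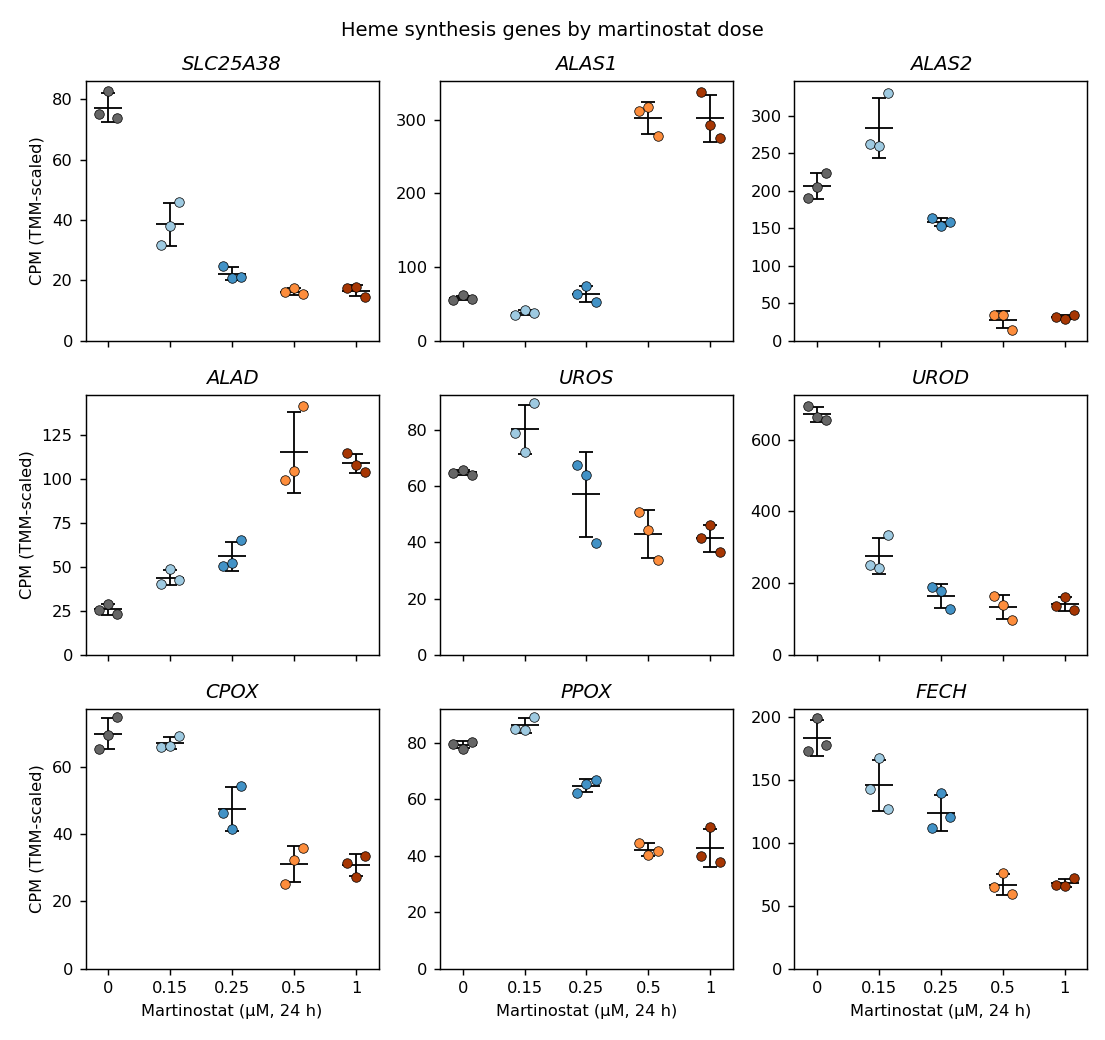
CPM (TMM-scaled, linear axes from 0) of the 9 heme synthesis genes against martinostat dose in µM after 24 h. Points are the 3 libraries of a group and bars the mean ± SD. ALAS1 and ALAD stand high at 0.5 and 1 µM, where the other genes lie below their untreated libraries.

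SLC25A38, on chromosome 3 (hg38 39383370 to 39397351), brings glycine into the mitochondrion and is mutated in a form of sideroblastic anaemia. Its untreated libraries held 75.0, 82.7 and 73.8 CPM. At 0.15 µM the values were 31.9, 37.9 and 45.8, at 0.25 µM 24.7, 20.7 and 21.2, at 0.5 µM 16.0, 17.5 and 15.4, and at 1 µM 17.4, 17.8 and 14.7. The treated and untreated libraries did not overlap, and up to 0.5 µM each dose lay wholly below the one before it. SLC25A38 had decreased by 50.1% at the lowest dose (edgeR adjusted p = 1.57e-05) and reached a log2 fold change of −2.22 ± 0.15 at 1 µM (± SE, here and below, edgeR adjusted p = 3.36e-10).

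ALAS1, on chromosome 3 (52198086 to 52214327), catalyses the first step in all tissues. The untreated libraries held 55.3, 61.7 and 57.1 CPM and those at 0.15 µM 35.5, 41.4 and 37.4. At 0.25 µM the values were 63.1, 74.3 and 52.0, which overlapped the untreated range. They stood at 312, 318 and 277 CPM at 0.5 µM and at 337, 293 and 275 at 1 µM, far above every library at the lower doses. ALAS1 was therefore lower at 0.15 µM (−0.61 ± 0.15, edgeR adjusted p = 0.0019) and higher at 0.5 µM (2.38 ± 0.15, edgeR adjusted p = 1.09e-10). The decrease at 0.15 µM depended on scale, since library totals gave −0.24 with an edgeR adjusted p of 0.108, and at 0.25 µM the difference of 0.12 (edgeR adjusted p = 0.48) was called at 0.63 with library totals and 0.53 with TMM on well-expressed genes. The increases at 0.5 and 1 µM were called under every alternative.

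ALAS2, on the X chromosome (55009055 to 55030977, minus strand), is the form that supplies hemoglobin and is mutated in X-linked sideroblastic anaemia. Its libraries held 190, 205 and 224 CPM in untreated cells and 262, 260 and 331 at 0.15 µM. All 3 libraries at 0.15 µM lay above the untreated ones, but the difference of 0.46 ± 0.22 did not pass the test (edgeR adjusted p = 0.0901), although it did with library totals (0.82), with TMM on well-expressed genes (0.72) and without the third libraries at 0.25 and 0.5 µM (0.47). At 0.25 µM the values were 164, 152 and 158 CPM, below the untreated range by −0.38 (edgeR adjusted p = 0.14). This difference was called without the third libraries (−0.36, edgeR adjusted p = 0.0202) and turned to 0.15 with library totals. At 0.5 µM they were 34.5, 34.7 and 14.8 CPM and at 1 µM 32.2, 28.7 and 34.3. ALAS2 had the lowest log2 fold change of the 9 genes at both of these doses, at −2.89 ± 0.24 (edgeR adjusted p = 4.77e-09) and −2.70 ± 0.24 (edgeR adjusted p = 1.02e-08). The third library at 0.5 µM was the lowest of all, and without it and the third library at 0.25 µM the change at 0.5 µM was −2.54. At 1 µM, 2.64% of all tested genes had a lower log2 fold change than ALAS2.

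Because both ALAS genes are read from the same library, their ratio does not depend on how libraries are scaled. Per length of exon, ALAS2 exceeded ALAS1 by 4.27, 4.12 and 4.86 times in the untreated libraries and by 9.14, 7.77 and 11.0 times at 0.15 µM. The ratio was 3.21, 2.54 and 3.77 at 0.25 µM, then 0.137, 0.135 and 0.0660 at 0.5 µM and 0.118, 0.122 and 0.155 at 1 µM. The predominant transcript thus switched from ALAS2 to ALAS1 between 0.25 and 0.5 µM, and no library of one side overlapped the other. Group means were 4.42 ± 0.389 in untreated cells and 0.131 ± 0.0202 at 1 µM (SD, n = 3). The mean log2 ratio differed from untreated cells by 1.06, −0.49, −5.36 and −5.08 from 0.15 to 1 µM, the last corresponding to a 33.8-fold lower ratio. Each difference gave p = 0.1 in an exact two-sided permutation test and 0.1 after adjustment over the 4 comparisons, which is the smallest p that 3 against 3 libraries allow.

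**Figure D2:**
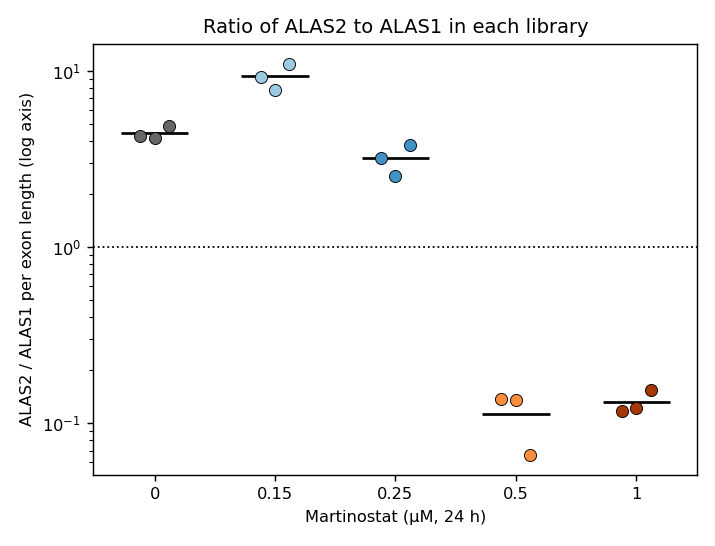
Ratio of ALAS2 to ALAS1 counts per exon length in each library (logarithmic axis) against martinostat dose in µM. Points are libraries, horizontal bars are group means and the dotted line marks equal levels; the 9 libraries up to 0.25 µM lie between 2.54 and 11.0 and the 6 at the higher doses between 0.0660 and 0.155.

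ALAD, on chromosome 9 (113386312 to 113401290, minus strand), joins the product of the ALAS enzymes into the first pyrrole in the cytosol. Its libraries held 25.7, 28.9 and 22.9 CPM in untreated cells, 40.5, 49.1 and 42.3 at 0.15 µM and 50.4, 52.5 and 65.6 at 0.25 µM. At 0.5 µM they held 99.5, 105 and 142 CPM and at 1 µM 115, 108 and 104. No treated library reached down to the untreated range. ALAD was the only one of the 9 genes called higher than untreated at all 4 doses, by 0.77, 1.12, 2.16 and 2.08 in log2 fold change, with edgeR adjusted p from 0.000499 at 0.15 µM to 1.07e-09 at 0.5 µM, and these calls held under every alternative. The highest value came from the third library at 0.5 µM, and without it and the third library at 0.25 µM the change at 0.5 µM was 2.02.

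UROS, on chromosome 10 (125784980 to 125823258, minus strand), closes the porphyrin ring and is the enzyme deficient in congenital erythropoietic porphyria. Its values ran close together in untreated cells (64.8, 65.9 and 64.1 CPM) and were 79.0, 72.3 and 89.6 at 0.15 µM. They were 67.7, 64.0 and 39.7 at 0.25 µM, where the third library stood below the others, 50.7, 44.3 and 33.6 at 0.5 µM, and 41.6, 46.2 and 36.7 at 1 µM. The libraries at 0.15 µM lay above and those at 0.5 and 1 µM below the untreated range. The change of 0.31 at 0.15 µM was not called with TMM (edgeR adjusted p = 0.173) and was called with library totals (0.66, edgeR adjusted p = 0.00117). UROS was called lower at 0.5 µM (−0.60 ± 0.18, edgeR adjusted p = 0.00782) and at 1 µM (−0.65 ± 0.18, edgeR adjusted p = 0.0048), the smallest of the 9 changes, and both calls were lost with library totals (−0.25 and −0.29). At 1 µM, 41.0% of well-expressed genes had a lower log2 fold change than UROS.

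UROD, on chromosome 1 (45010950 to 45015575), trims the side chains of the new ring and is deficient in porphyria cutanea tarda. It was the most abundant of the 9 in untreated cells, with 694, 662 and 656 CPM. The values fell to 250, 242 and 335 CPM at 0.15 µM and were 190, 177 and 127 at 0.25 µM, 163, 138 and 97.5 at 0.5 µM and 135, 162 and 125 at 1 µM. Most of the decrease was present at the lowest dose, and the 2 higher doses overlapped the 0.25 µM libraries. UROD changed by −1.28 ± 0.20 at 0.15 µM (edgeR adjusted p = 2.47e-05) and by −2.25 ± 0.20 at 1 µM (edgeR adjusted p = 1.22e-08). It was lower at all 4 doses under every alternative, and a gene on the opposite strand covers 9.31% of its exon bases.

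CPOX, on chromosome 3 (98579446 to 98593648, minus strand), carries out the first of the closing oxidations. It held 65.4, 69.4 and 74.6 CPM in untreated cells and 65.9, 66.1 and 69.1 at 0.15 µM, within the untreated range (−0.06, which turned to 0.30 with library totals). The values were 46.4, 41.4 and 54.4 at 0.25 µM, 25.3, 32.4 and 35.9 at 0.5 µM and 31.6, 27.1 and 33.6 at 1 µM. The 2 highest doses lay below every other library. CPOX was called lower from 0.25 µM (−0.56, edgeR adjusted p = 0.00289) to 1 µM (−1.18 ± 0.15, edgeR adjusted p = 1.15e-06). The call at 0.25 µM was lost with library totals (−0.02) and with TMM on well-expressed genes (−0.13).

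PPOX, on chromosome 1 (161166056 to 161178013), removes hydrogens from the ring to give protoporphyrin and is deficient in variegate porphyria. Its libraries held 79.6, 77.8 and 80.3 CPM in untreated cells and 84.7, 84.6 and 89.2 at 0.15 µM. They held 62.3, 65.3 and 66.8 at 0.25 µM, 44.7, 40.3 and 41.6 at 0.5 µM and 40.1, 50.3 and 37.9 at 1 µM. The values at 0.15 µM were the highest and those at 0.5 and 1 µM the lowest. Against untreated cells the change was 0.12 at 0.15 µM (edgeR adjusted p = 0.443), called at 0.48 with library totals, −0.29 at 0.25 µM (edgeR adjusted p = 0.051), which turned to 0.24 with library totals, and −0.89 ± 0.13 at 1 µM (edgeR adjusted p = 4.94e-06). Exons of genes on the opposite strand cover 26.2% of the PPOX exon bases, and whether strand was used in counting was not stated, so reads there cannot be attributed.

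FECH, on chromosome 18 (57544377 to 57586732, minus strand), inserts iron into protoporphyrin and carries an iron-sulfur cluster. It held 172, 199 and 178 CPM in untreated cells, 143, 167 and 127 at 0.15 µM and 112, 140 and 120 at 0.25 µM. At 0.5 µM the values were 65.1, 75.8 and 59.3 and at 1 µM 66.7, 65.8 and 71.9. All treated libraries lay below the untreated ones, and the 2 highest doses lay lowest. FECH did not pass the test at 0.15 µM (−0.33, edgeR adjusted p = 0.0581), where DESeq2 called it (−0.38) and library totals gave 0.03. It was called at 0.25 µM (−0.56, edgeR adjusted p = 0.00208) though not with library totals (−0.04), and it changed by −1.43 ± 0.14 at 1 µM (edgeR adjusted p = 6.36e-08).

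**Figure D3:**
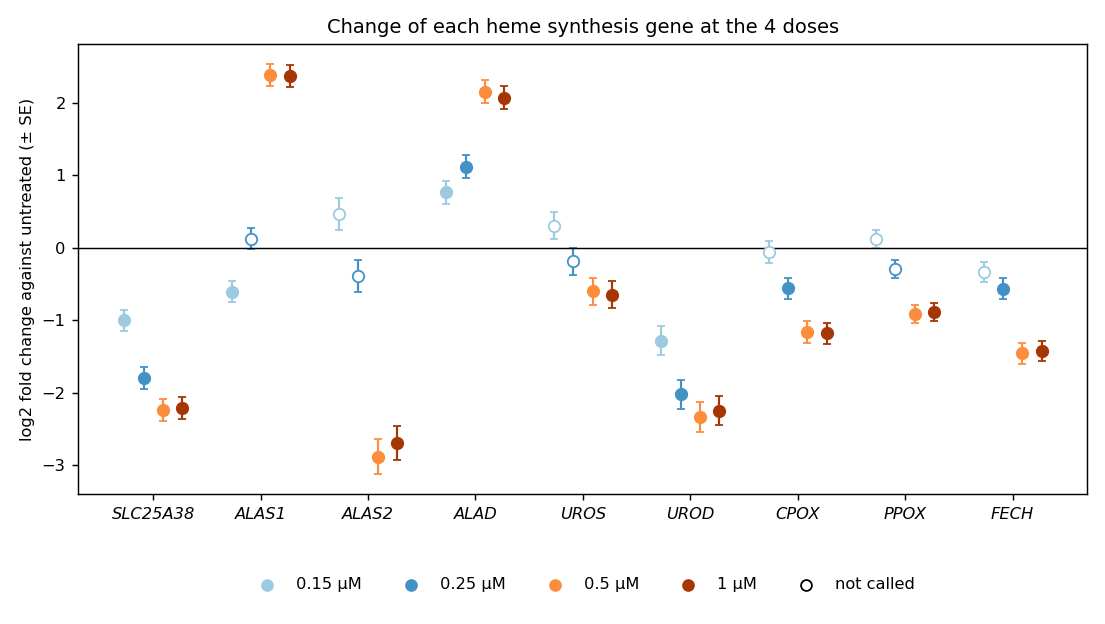
Log2 fold change against untreated cells (± SE from edgeR, linear axis) of the 9 genes at each of the 4 doses; filled points passed the test at an adjusted p under 0.05 and open points did not. SLC25A38 and UROD are already low at 0.15 µM. At that dose ALAS1 lies below untreated cells and ALAS2 above them (open point), and at 0.5 and 1 µM their order is reversed and the gap wider.

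Successive doses were compared to locate these changes. Between doses, shares called were computed over all genes and not for well-expressed genes, so the counts below lack that comparison. From 0.15 to 0.25 µM the median log2 fold change was −0.14 in well-expressed genes and 0.02 in all genes. From 0.15 to 0.25 µM ALAS1 rose by 0.73 (edgeR adjusted p = 0.00326) and SLC25A38 fell by 0.80 (edgeR adjusted p = 0.00187). ALAS2, UROD, CPOX and PPOX were also called lower there, which made 1 gene higher and 5 lower, against 4.96% and 7.32% of all genes (12.3% in either direction). These 4 calls depended on single libraries to differing degrees. Of 24 alternatives each, 2 removed the call of ALAS2, 2 that of UROD, 11 that of CPOX and 18 that of PPOX. In all, 1 gene was called lower without the third library at 0.15 µM, 2 without the second at 0.25 µM and 3 without any 1 of the other 4 libraries. ALAS2 was −0.68 (edgeR adjusted p = 0.0975) and UROD −0.54 (edgeR adjusted p = 0.111) without the third library at 0.15 µM. ALAS2 also lost its call without the second library at 0.25 µM (−0.83, edgeR adjusted p = 0.0635) and UROD without the third there (−0.57, edgeR adjusted p = 0.0871), whereas PPOX lost it without any 1 of the 6.

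From 0.25 to 0.5 µM ALAS1 rose by 2.26 and ALAD by 1.04, and ALAS2 fell by 2.50 (edgeR adjusted p = 4.32e-09, 5.16e-05 and 2.59e-07). FECH, PPOX, CPOX and SLC25A38 fell by 0.89, 0.62, 0.60 and 0.45. In all, 2 genes were called higher and 5 lower, against 14.4% and 16% of all genes (30.4% in either direction). UROD at −0.31 (edgeR adjusted p = 0.25) and UROS at −0.41 (edgeR adjusted p = 0.0994) were not called. Without the third libraries of both groups SLC25A38 lost its call (−0.42, edgeR adjusted p = 0.0655) and UROS gained one (−0.45, edgeR adjusted p = 0.0243). SLC25A38 was likewise not called without the first or the third library of either group (edgeR adjusted p from 0.0525 to 0.114), and UROS was called without the third library at 0.25 µM (−0.59). Same-numbered libraries of these 2 groups deviated together, and with the number as a block within the groups UROD (−0.33, edgeR adjusted p = 0.00897) and UROS (−0.41, edgeR adjusted p = 0.0051) were also called.

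Between 0.5 and 1 µM, none of the 9 genes was called by edgeR, with log2 fold changes from −0.08 (ALAD) to 0.19 (ALAS2) and SEs of 0.13 to 0.23. None of them had an unadjusted p under 0.05 in edgeR or in DESeq2. Over all genes, each tool called 0 (0%), with 372 and 547 genes at an unadjusted p under 0.05. From 0.15 to 1 µM, ALAS1 (2.98) and ALAD (1.31) were called higher and the other 7 lower, against 21.5% and 23.1% of all genes (44.5% in either direction). ALAS2 differed most between these doses, by −3.16 ± 0.24 (edgeR adjusted p = 7.02e-09), and UROS and PPOX by −0.95 and −1.01. Over the 5 groups, each of the 9 differed in edgeR's test, as did 73.6% of all genes.

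The make-up of the pathway's transcripts, given as each gene's share of the summed counts per kb of exon within a library, is free of library scaling too. UROD made up 43.1% ± 1.94 and ALAS2 26.1% ± 1.80 of the 9 genes in untreated cells (SD, n = 3). At 0.15 µM ALAS2 held 45.2% ± 1.35 and UROD 22.2% ± 1.61. This exchange of order holds for exon length only: with main transcript lengths UROD stayed first, at 63.7% against 12.1% for ALAS2 in untreated cells and 39.7% against 25.3% at 0.15 µM. At 1 µM ALAS1 held 52.3% ± 2.53, having held 5.91% ± 0.291 in untreated cells, and ALAD held 9.73% ± 0.197 in place of 1.35% ± 0.158. ALAS2 was down to 6.86% ± 0.934 and UROD to 15.4% ± 1.96, while PPOX lay between 3.99% and 6.59% in all group means and UROS between 1.77% and 2.86%. With main transcript lengths the means ran from 5.19% to 9.71% for PPOX and from 5.51% to 10.9% for UROS. Both were lowest in untreated cells and highest at 0.25 µM. Per kb of exon, UROS and ALAD were the lowest of the 9 in untreated cells, at 6.83 ± 0.0991 and 5.23 ± 0.613 CPM per kb, and SLC25A38 (29.0 ± 1.81), ALAS1 (22.9 ± 1.31) and CPOX (22.1 ± 1.46) followed UROD (166 ± 5.12) and ALAS2 (101 ± 8.18). Exon length is the union over annotated transcripts and exceeds the main transcript of UROS (9505 against 1336 bases) and UROD (4029 against 1193 bases) by several times. It also exceeds that of PPOX (4725 against 1733 bases). With main transcript lengths the UROD and ALAS1 shares at 1 µM came to 31.0% and 33.4%, and that of UROS to 8.16%. The low rank of UROS also rests on exon length, since with main transcript lengths UROS held 5.51% in untreated cells, above ALAS1 (2.77%), FECH (2.70%), CPOX (2.92%), SLC25A38 (4.16%) and PPOX (5.19%), while ALAD remained the lowest at 0.937%.

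**Figure D4:**
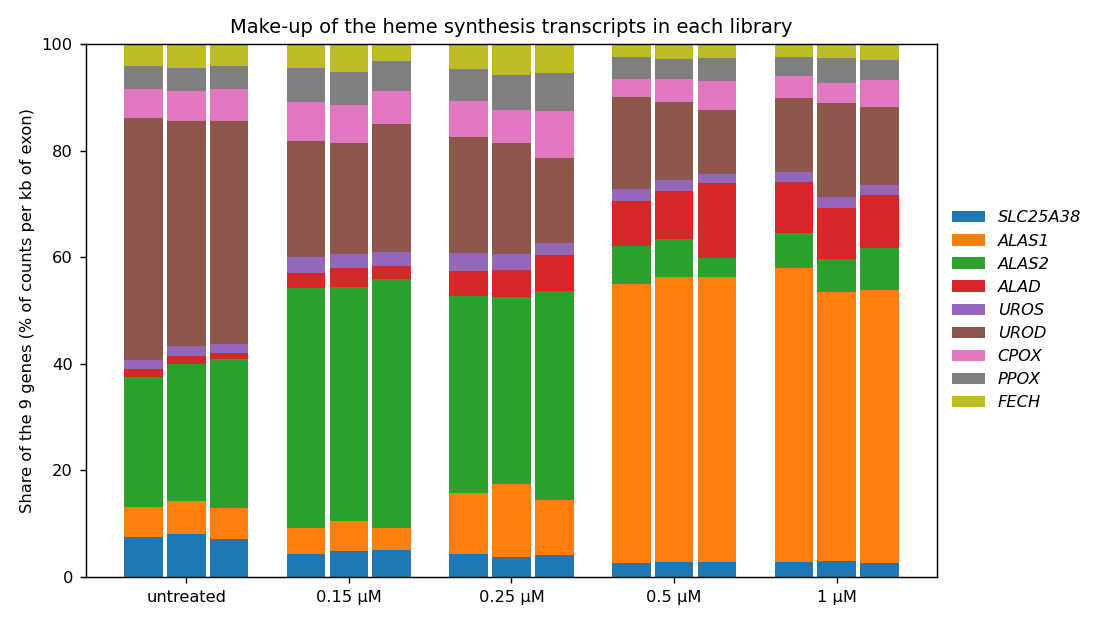
Share of each gene in the summed counts per kb of exon of the 9 heme synthesis genes, in percent, for each of the 15 libraries grouped by dose. UROD and ALAS2 fill most of the untreated bars and ALAS1 more than 50% of each bar at 0.5 and 1 µM.

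Genes around the pathway were grouped by function. Their counts at 1 µM stand beside 38.8% called higher and 27.5% lower among all genes, and 26.5% and 48.4% among well-expressed genes. At 0.15 µM these shares were 31.9% and 19.4% among all genes, and 21.1% and 40.2% among well-expressed genes. Of 8 genes that supply glycine and succinyl-CoA, none was called higher and 6 lower at 1 µM (5 at 0.15 µM), with a median log2 fold change of −0.62, and library totals called 1 higher and 3 lower. They included the succinyl-CoA ligase subunits SUCLG2 (−2.73 ± 0.18), SUCLA2 (−1.05 ± 0.20) and SUCLG1 (−1.04 ± 0.19). Of 10 tested genes for mitochondrial iron and iron-sulfur clusters, 0 were called higher and 6 lower at 1 µM, with a median of −0.73, against 2 and 5 with library totals. Among well-expressed genes 48.4% were called lower, so that 6 of 10 is no result about this list. They included LYRM4, which belongs to the cluster assembly complex (−1.70 ± 0.24), and the erythroid iron importer mitoferrin SLC25A37 (−1.41 ± 0.23). At 0.15 µM SLC25A37 was the gene of this list called higher (0.58 ± 0.23, edgeR adjusted p = 0.044), a call that was lost with RLE factors (0.53, edgeR adjusted p = 0.0651) and without any one of 5 of the 6 libraries compared (0.44 to 0.64).

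Of 6 genes linked to porphyrin transport, 0 were called higher and 5 lower at 1 µM (median −1.09), and 3 lower with library totals. ABCB10, an inner membrane transporter of erythroid mitochondria, changed by −2.45 ± 0.18, TMEM14C, needed for porphyrin import, by −1.11 ± 0.17. TSPO, an outer membrane protein that binds porphyrins, held 91.5, 57.0 and 53.8 CPM in untreated cells and 8.48, 36.4 and 10.1 at 1 µM, where the second library stood above the remaining ones. Its change of −1.88 ± 0.73 (edgeR adjusted p = 0.0384) was −2.86 without that library, and it was not called without any one of the other 5 libraries compared (−2.02 to −1.54) or with library totals (−1.54). Of 7 tested genes for heme breakdown and export, 1 was called higher and 3 lower, near the 26.5% and 48.4% of well-expressed genes and so no result about the list. The lower genes were the porphyrin exporter ABCG2 (−1.80 ± 0.21), biliverdin reductase B, BLVRB (−0.87 ± 0.33), and FLVCR1, described as a heme exporter (−0.51 ± 0.13). With library totals BLVRB (−0.52) and FLVCR1 (−0.15) were not called, and BLVRB was not called without any one of 4 of the 6 libraries compared (−0.88 to −0.74). The higher one, FLVCR2, a relative of FLVCR1 named after its values were seen, rose from a mean of 0.161 to 3.33 CPM. With 12 counts summed over the untreated libraries, it passed the filter on low counts only through treated libraries. Its call is therefore no result about the list either. The median of this list, −0.25, turned to 0.10 with library totals, which called 3 higher and 1 lower. The heme oxygenase gene HMOX1 was not tested, having 4, 0, 4, 4 and 12 counts summed over the 3 libraries of each group from untreated cells to 1 µM.

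Regulators of heme synthesis differed in direction. Of 7 genes that sense heme or iron or control the ALAS enzymes, 2 were called higher and 4 lower at 1 µM (median −0.59), against 3 and 2 with library totals. These shares too are near the 26.5% and 48.4% of well-expressed genes. The iron regulatory proteins moved apart, ACO1 to 0.88 ± 0.15 and IREB2 to −0.62 ± 0.14 (−0.26 and not called with library totals), and the protease LONP1, which degrades ALAS1, to −1.33 ± 0.19. The other gene called higher, the coactivator PPARGC1A, is also named after its values were seen and had 2 counts summed over the untreated libraries and 36 over those at 1 µM. It passed the filter on low counts only through treated libraries, so its call is no result about this list. NRF1 itself, whose letters stand in the ALAS1 start, was lower (−1.21 ± 0.16), and the heme-binding repressor BACH1 was at 0.03 ± 0.13 (edgeR adjusted p = 0.845).

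Erythroid regulators were lower as a list at the doses at which ALAS2 was low. All 7 were called lower at 0.5 and 1 µM, with a median of −3.93 at 1 µM, where library totals called 6, all lower. KLF1, an activator of erythroid promoters, changed by −6.83 ± 0.26 at 1 µM, LMO2, a bridging factor of the GATA1 complex, by −5.09 ± 0.16 and GATA1 by −4.12 ± 0.17. GATA1 held 326, 335 and 323 CPM in untreated cells, 308, 286 and 344 at 0.15 µM, 204, 168 and 146 at 0.25 µM, 15.7, 14.2 and 16.6 at 0.5 µM and 15.3, 20.8 and 20.5 at 1 µM. The untreated and 0.15 µM ranges of GATA1 overlapped, whereas the means of KLF1 were 406, 185, 49.3, 2.84 and 3.58 CPM from untreated cells to 1 µM. At 0.15 µM the list had 2 genes higher and 3 lower, and its median of −0.07 turned to 0.29 with library totals. These counts are near the 21.1% and 40.2% of well-expressed genes at that dose and so are no result about the list. The transferrin receptor TFRC had means of 1228, 423, 373, 467 and 485 CPM from untreated cells to 1 µM, so that its level was already low at 0.15 µM. The part of these genes in the changes of the heme genes was not tested, and in bulk RNA fewer cells of a kind and less RNA per cell cannot be told apart.

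**Figure D5:**
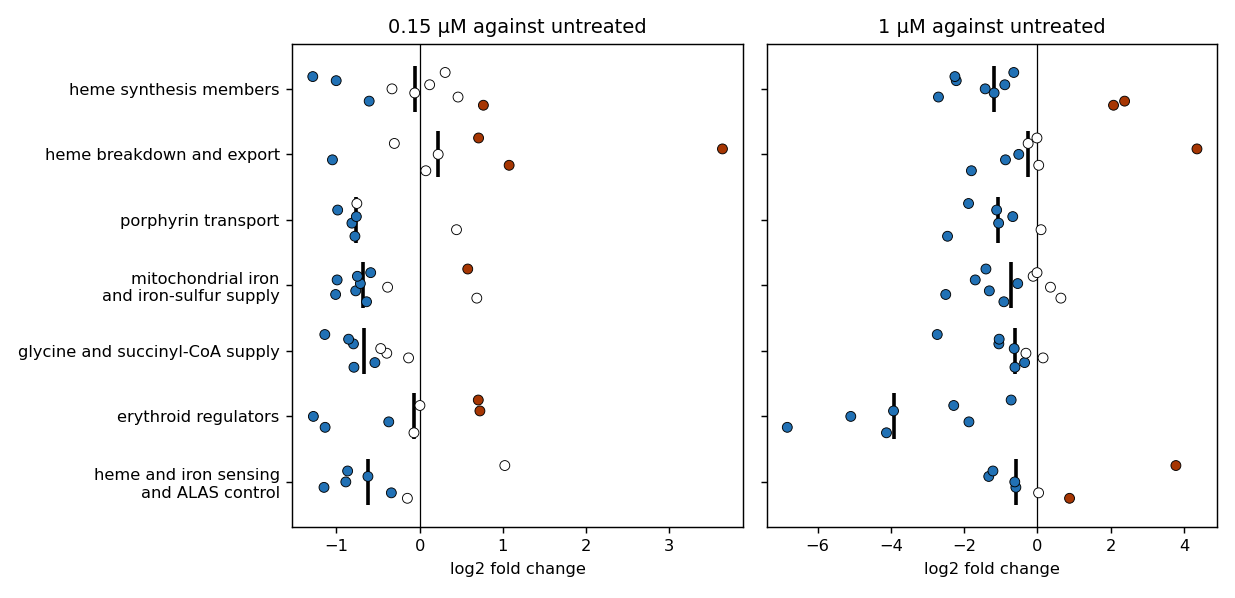
Log2 fold change against untreated cells (linear axes, different ranges) of each tested gene of the heme synthesis genes and the 6 surrounding lists at 0.15 µM (left) and 1 µM (right). Red points were called higher, blue points lower and white points not called, and vertical bars are list medians; at 1 µM the erythroid regulators lie farthest to the left, with a median of −3.93.

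The genes whose log2 CPM followed that of ALAS2 most closely over the 15 libraries, among 10119 well-expressed genes, were CXXC5 (Pearson r = 0.989), CMTM3 (0.989), APBA2 (0.989), TESC (0.988) and PRICKLE3 (0.987). For ALAS1 they were ZKSCAN5 (0.994), MCL1 (0.994), MED29 (0.991), TRAFD1 (0.991) and EPB41L5 (0.990). Such values were common, since 6.09% of these genes had an r over 0.9 with ALAS2 and 3.70% with ALAS1, and the 15 points share the 5 dose groups and the library scaling. They are given as a description without a test.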

How the data were processed

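Counts were used as deposited. Per the labels and the study's methods, the authors selected poly(A) RNA, made directional libraries, trimmed paired reads (Trim Galore 0.6.10, Trimmomatic), aligned them to hg38 (HISAT2 2.2.1, SAMtools 1.21) and counted them per GENCODE gene (featureCounts 1.5.3), without normalization. Whether the counting used strand was not given in the sources used here. The deposited FPKM were not used. Symbols were found for 99.8% of identifiers; positions are from GENCODE on hg38.

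Genes were filtered with filterByExpr, scaled by TMM and tested in edgeR 4.0.16 (R 4.3.3) with the robust quasi-likelihood test, all 15 libraries in one fit on group, and adjusted by Benjamini-Hochberg with a threshold of 0.05. The fit had 10 residual degrees of freedom and a common dispersion of 0.0520. The steps were tested on simulated data in which few genes changed, as many up as down. In these data most genes were called, so that simulation did not test the scaling. DESeq2 1.42.0, other scalings, filters and sample sets were alternatives. Within groups, log2 CPM correlated at 0.972 to 0.997 across genes, and no pair of libraries agreed within sampling noise. From the surrounding lists, up to 3 genes in each direction with a mean of at least 10 CPM and the largest change at 1 µM were named, with GATA1, KLF1, BACH1 and HMOX1. Values of some listed genes are not reported here. Genes and lists were chosen with earlier results of these data known. Pairing by replicate number was checked on deviations from group means: same-numbered libraries correlated at 0.476, 0.500 and 0.754 between 0.25 and 0.5 µM, and at −0.234 to 0.210 elsewhere.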

Additional observations from a re-analysis of the deposited data

How the results depend on the processing

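Of 72 results (9 genes in 8 comparisons), 40 kept direction and side of the threshold under every alternative, of at most 25 each. Without a filter, the percent of all genes called was 25.5, 32.2, 35.1 and 34.8 against untreated cells, from 0.15 to 1 µM, 6.64 from 0.15 to 0.25 µM, 14.5 from 0.25 to 0.5 µM and 21.7 from 0.15 to 1 µM, since more genes were then tested. At 0.15 µM, 7 of the 9 genes were called (4 in the main analysis) with TMM on well-expressed genes (mean of 10 CPM or more), with at least 10 counts in every library, with only the compared groups and without the third libraries at 0.25 and 0.5 µM (an alternative added after seeing the data). At 0.25 µM, 2 genes (in place of 4) were called lower with library totals, that TMM or the 10-count filter. From 0.15 to 0.25 µM, 3 (in place of 5) were called lower by DESeq2 and with RLE, library totals, that TMM, the 10-count filter or only the compared groups, and from 0.25 to 0.5 µM 3 (in place of 5) with only the compared groups. Leaving out single libraries gave 2 to 7 called and 1 to 6 called lower from 0.15 to 0.25 µM, and 6.87% to 16.4% of all genes.

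Library totals reversed CPOX (0.30) and FECH (0.0326) at 0.15 µM, ALAS2 (0.15), UROS (0.32) and PPOX (0.24) at 0.25 µM and PPOX from 0.5 to 1 µM (−0.0071). TMM on well-expressed genes reversed CPOX (0.20) at 0.15 µM, ALAS2 (0.0363), UROS (0.22) and PPOX (0.13) at 0.25 µM and PPOX from 0.5 to 1 µM (−0.0109). The 10-count filter reversed CPOX (0.12) at 0.15 µM and UROS (0.0947) at 0.25 µM. Without the third libraries, UROS was 0.0436 at 0.25 µM, and from 0.5 to 1 µM ALAS2 was −0.12, ALAD 0.10, UROD −0.0911, CPOX 0.099, FECH −0.0412 and SLC25A38 −0.0019. None of these values was called. Without single libraries, ALAS1 ran from −0.0167 to 0.27 and UROS from −0.33 to 0.0426 at 0.25 µM. From 0.5 to 1 µM the ranges were −0.088 to 0.061 (ALAS1), −0.12 to 0.38 (ALAS2), −0.17 to 0.0985 (ALAD), −0.19 to 0.0941 (UROS), −0.0949 to 0.26 (UROD), −0.15 to 0.0936 (CPOX), −0.11 to 0.0997 (PPOX), −0.0466 to 0.14 (FECH) and −0.0177 to 0.11 (SLC25A38). The cause of each change was not tested.

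Among the lists, library totals called 3 genes at 0.15 µM (in place of 5) and 4 at 0.25 µM (in place of 7) for glycine and succinyl-CoA, 3 at 0.15 µM (in place of 5) for sensing, 5 at 0.25 µM (in place of 3) for breakdown and export and 3 at 1 µM (in place of 5) for porphyrin transport. TMM on well-expressed genes gave 3 for sensing at 0.15 µM, 5 for breakdown and export at 0.25 µM, 3 for porphyrin transport at 0.5 and 1 µM and 4 for glycine and succinyl-CoA at 0.5 µM (in place of 7). The 10-count filter gave 4 for glycine and succinyl-CoA at 0.5 µM, and 2 and 1 for breakdown and export at 0.5 and 1 µM (in place of 4), with fewer genes tested. Scalings and left-out libraries for single named genes of the lists were added after seeing the data.

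The replicate number as a block over all groups changed the call of FECH at 0.15 µM (−0.34, edgeR adjusted p = 0.0428) and of PPOX from 0.15 to 0.25 µM (−0.41, edgeR adjusted p = 0.0505) and no other of the 72. Only 1 of 10 pairs of groups, 0.25 with 0.5 µM, was paired by the check, and the block within it (added after seeing the data) called 46.1% of all genes in place of 30.4%.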
